A study of Mus musculus with 36 samples.

Results

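The genes described here are 10 that act in the storage of fat in lipid droplets: Plin2, Plin4, Plin5, Cidea, Cideb, Cidec, G0s2, Pnpla2, Mogat1 and Cd36. They were taken from the count tables by symbol, and all 10 were found among the 21955 symbols listed. A filter on low counts left 13436 genes to be tested, and 9 of the 10 were among them. Mogat1 failed the filter, with 55 counts over all libraries and at most 5 in any one. Cidea passed it only through old libraries in which it was high, so that its calls are given as descriptions and support nothing.

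A lipid droplet is a core of triglyceride under a single layer of phospholipid, and the proteins on its surface decide how fast fat goes in and out. Perilipins coat the droplet and shield it from lipases, CIDE proteins join droplets so that large ones grow at the cost of small ones, and the lipase coded by Pnpla2 releases fatty acids under restraint by G0s2. In the liver these genes respond to incoming fatty acids, in part through the nuclear receptors PPARα and PPARγ. Regenerating liver is known to fill with droplets for a time and then to clear them.

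RNA was sequenced from whole liver of C57BL/6JN mice, an inbred strain, at 6 points of regeneration labelled before, 48, 72, 96, 120 and 240, in young (4 months) and old (18 months) animals. No transgene, deletion or drug is named for any group, and the labels give neither the unit of the time points nor the way in which regeneration was started. Each of the 12 groups held 3 libraries, described as biological replicates, so the series had 36. Old animals were the group of interest and young animals the reference.

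The libraries held 2328233 to 6034446 counts, with a median of 4439170. Hepatocyte markers (Alb, Ttr, Apoa1, Tat, Cyp2e1 and Cps1) summed to 16900 CPM or more in each library, with CPM meaning counts scaled to a common library size on TMM-adjusted totals. Transcripts of 4 Y-linked genes were above 10 CPM in 12 libraries, 1 of the 3 in each group, although the labels name no sex. The old group at 48 was uneven. Its replicates 1, 2 and 3 held 154, 13.98 and 561.5 CPM of Mki67, a gene of dividing cells, and 4768, 4057 and 9078 CPM of Alb. Replicates 1 and 2 were thus low for both genes, and the results below name them where they decide a value. Old replicate 1 before regeneration also stood apart, with 20255 genes detected against at most 18309 in any other library. In bulk liver, a change in the number of cells of a type and a change in RNA per cell cannot be told apart.

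The stretches just upstream of 5 of the genes are shown because these 5 were called higher in old liver at 48, Plin4 through 1 library. They are RefSeq sequences of the GRCm38.p6 build, cut to the part of the 250 bases before the start that lies upstream of all annotated starts, and they are written 5′ to 3′ on the strand of the gene. Bounds of genes are those of GENCODE on the same build. Capitals mark AGGTCA or its reverse complement TGACCT, the core letters that PPAR and related receptors can bind. Plin2 lies on the minus strand of chromosome 4 (gene 86648386 to 86670060), and the stretch is chr4:86670218-86670309.
Plin2: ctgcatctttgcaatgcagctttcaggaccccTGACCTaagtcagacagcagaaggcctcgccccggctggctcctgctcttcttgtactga
Plin4 and Plin5 are neighbours on the minus strand of chromosome 17 (genes 56100591 to 56109803 and 56111601 to 56117596), and the stretches are chr17:56109949-56110032 and chr17:56117607-56117798.
Plin4: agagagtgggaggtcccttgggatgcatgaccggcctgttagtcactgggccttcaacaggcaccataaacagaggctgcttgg
Plin5: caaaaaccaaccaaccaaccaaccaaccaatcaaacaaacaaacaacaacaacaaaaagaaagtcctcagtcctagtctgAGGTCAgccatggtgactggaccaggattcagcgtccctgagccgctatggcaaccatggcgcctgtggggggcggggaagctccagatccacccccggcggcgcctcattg
Cidec lies on the minus strand of chromosome 6 (113424634 to 113435760) and Pnpla2 on the plus strand of chromosome 7 (141455198 to 141460743). Their stretches are chr6:113435761-113436010 and chr7:141454938-141455187.
Cidec: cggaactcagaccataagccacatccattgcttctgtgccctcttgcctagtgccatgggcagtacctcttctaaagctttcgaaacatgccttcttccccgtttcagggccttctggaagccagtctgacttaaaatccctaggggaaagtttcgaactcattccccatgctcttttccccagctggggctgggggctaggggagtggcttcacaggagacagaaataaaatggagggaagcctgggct
Pnpla2: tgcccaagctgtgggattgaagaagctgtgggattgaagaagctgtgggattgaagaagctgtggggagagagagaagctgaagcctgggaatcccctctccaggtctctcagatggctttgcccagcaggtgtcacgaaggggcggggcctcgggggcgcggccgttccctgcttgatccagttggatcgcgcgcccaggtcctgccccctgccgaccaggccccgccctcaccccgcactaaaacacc
Over the full 250 bases, searched on both strands, AGGTCA was found for 3 of the 9 genes examined (Plin2, Plin5 and Cd36) and in 4607 of 32851 windows of that length. The 9 genes examined here include Mogat1 and leave out Cidea. The direct repeat known as DR1, the full PPAR element, which can overlap single cores, was found for 0 of the 9 and in 0.338% of windows. The E-box CACGTG was found for 0 of the 9 and in 6.02% of windows. A match is a run of letters and not a measured binding site.

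Before regeneration the storage genes differed widely in level. Per kilobase of exon, young liver held most G0s2 (116 CPM per kb), followed by Plin2 (73.7), Pnpla2 (24.9), Cideb (16.8), Plin5 (13.1), Cd36 (8.41), Cidec (2.73) and Plin4 (2.64). Mogat1 (0.260) and Cidea (0.0724) were close to absent. In old liver the same scale gave 183 for G0s2, 78.1 for Plin2 and 21.3 for Cd36. The order of neighbours such as Cidec and Plin4, or Cideb and Plin5, was not tested.

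In young liver none of the 9 tested genes passed the threshold, an adjusted p under 0.05 by edgeR's quasi-likelihood test, at any later time point against before. The share of all genes called in these 5 comparisons was 21.9% for 48, 17.4% for 72, 1.4% for 96, 0.581% for 120 and 0.246% for 240. At an unadjusted p under 0.05 there was 1 gene at 96 (Plin2, log2 fold change -0.85 ± 0.35 SE) and 1 at 120 (G0s2, -1.19 ± 0.52). DESeq2 called 0. Fits of only the 2 groups compared, each with its own estimate of spread, gave 5 calls, all lower than before: G0s2 at 48, 96 and 120 (log2 -0.93, -0.84 and -1.17) and Plin2 at 72 and 96 (-0.62 and -0.85), with edgeR adjusted p from 0.000447 to 0.0307. A single test for any change over time called 0 of 9 in young liver, where 21.4% of all genes were called. Plin5 was the exception by DESeq2 (adjusted p 0.0269), with an edgeR adjusted p of 0.0698.

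In old liver 5 of the 9 genes rose from before to 48, namely Plin2, Plin4, Plin5, Cidec and Pnpla2, and none fell. The share of all genes called higher in this comparison was 12.1%. The median log2 fold change was 1.43 over the 9 genes, or 1.22 without Cidea, against 0.01 over all genes. Against before, 0 of 9 passed at 72, 96, 120 and 240, where 12.4%, 6.82%, 3.87% and 0.156% of all genes did. At an unadjusted p under 0.05 there were 2 of 9 at 120, Plin2 and G0s2, both below before, and DESeq2 called 1 at these 4 time points, G0s2 at 120 (adjusted p 0.0372). Any change over time was called for 6 of 9, the same 5 and G0s2, with 20.5% of all genes called. Fits of only the 2 groups left 1 call over the 5 old comparisons, G0s2 at 96 (log2 -0.81, edgeR adjusted p 0.0252), and 0 of the 5 calls at 48. Without old replicate 2 at 48, the 5 calls fell to 1, Plin5, and the 6 for any change over time fell to 2.

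Old against young at 48, Plin2, Plin4, Plin5, Cidec, G0s2, Pnpla2 and Cd36 were called higher in old liver, and Cideb was not. With Cidea, whose call is a description that supports nothing, these made up 8 of the 9 genes. Of all genes, 4.42% were called higher in this comparison. The median log2 difference over the 9 was 1.65, or 1.47 without Cidea, against 0.02 over all genes. At the other 5 time points 0 of 9 passed, where the share called among all genes was 0.0595% before, 0.171% at 96 and 0.0149% at 240, with 0% for both 72 and 120. Unadjusted p was under 0.05 for 2 of 9 before and at 96 and for 1 of 9 at 72, 120 and 240, and DESeq2 made 1 call outside 48, Cd36 before (adjusted p 0.0465). Leaving out old replicate 2 at 48 brought the 8 calls down to 3, namely Cidec, G0s2 and, as a description, Cidea. A fit of only the 6 libraries at 48 left 0.

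**Figure D1:**
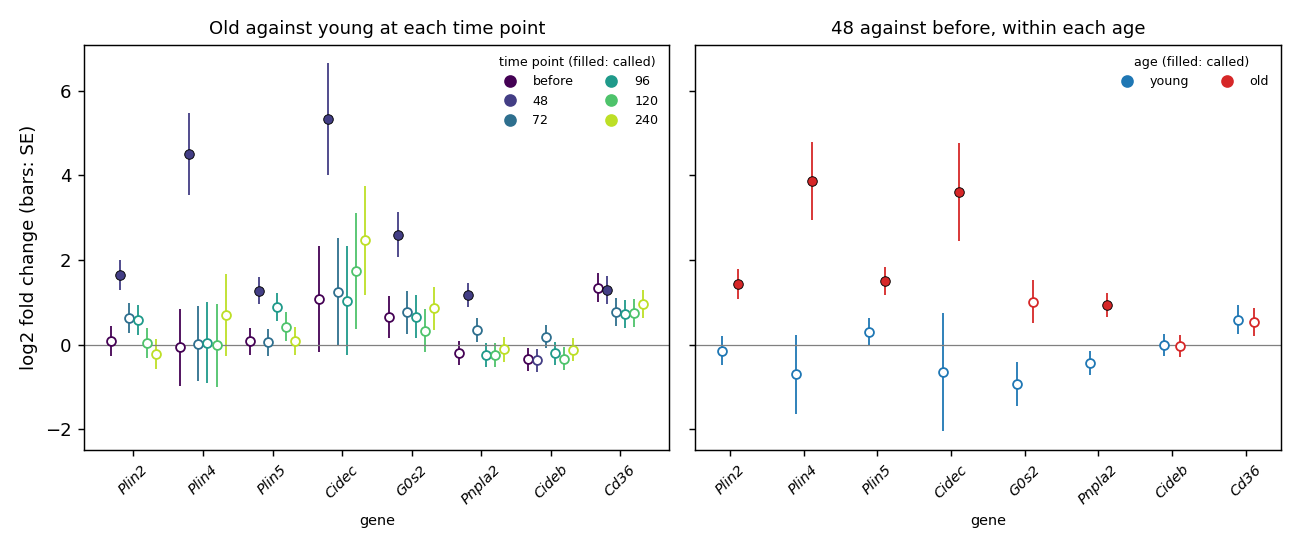
Log2 fold changes (y axis, with SE bars) of 8 genes from edgeR, between the ages by time point (left) and for 48 against before within each age (right); filled points passed an adjusted p of 0.05, and Cidea is left out because its fold rests on counts near 0. The filled points all belong to 48, and of the old points on the right 5 are filled.

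Plin2 codes for the main perilipin of hepatocyte droplets. In old liver its libraries held 262, 308 and 253 CPM before and 578, 1398 and 235 CPM at 48. Replicates 1 and 2 at 48 were above every other library of the series, while replicate 3 lay below the old libraries before. The fitted rise was 2.69-fold, a log2 fold change of 1.43 ± 0.36 (SE), with an adjusted p of 0.00481 by edgeR's quasi-likelihood test. Young libraries held 259, 256 and 262 CPM before and 269.9, 196 and 238 CPM at 48, ranges that overlapped. Old was 3.14-fold above young at 48 (log2 difference 1.65 ± 0.36, edgeR adjusted p 0.00287). Without old replicate 2 at 48, the log2 values were 0.59 against before (adjusted p 0.152) and 0.78 against young (adjusted p 0.122), and neither passed in edgeR.

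At later time points Plin2 lay lower in both ages. The group means were 166 ± 30 CPM (SD, n = 3) in young and 258 ± 75 in old liver at 72, and 144 ± 25 and 215 ± 62 at 96. At both time points each old library was above each young one, but the log2 differences of 0.64 ± 0.35 and 0.58 ± 0.35 were not called. By 120 and 240 the ages overlapped.

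Plin4 codes for a perilipin best known from fat cells. The old libraries held 15.7, 10.9 and 17.6 CPM before and 20.9, 619 and 7.36 CPM at 48. Replicate 2 alone was high, and replicate 3 was the lowest of the 6. The fit gave a log2 fold change of 3.87 ± 0.93 with an edgeR adjusted p of 0.003995. Without replicate 2 the value was -0.04 with an edgeR adjusted p of 0.969. Against young liver at 48 (9.48, 9.57 and 9.36 CPM) the log2 difference was 4.51 ± 0.96 (edgeR adjusted p 0.00303), and 0.56 (adjusted p 0.671) without replicate 2. The result for Plin4 therefore rested on 1 library.

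Plin5 codes for the perilipin that ties droplets to mitochondria in tissues that burn fat. Its old libraries held 22.3, 27.3 and 36.7 CPM before and 81.4, 124 and 40.1 CPM at 48. All 3 libraries at 48 were above all 3 before. The rise was 2.84-fold (log2 1.51 ± 0.32, edgeR adjusted p 0.00144), and it was called whichever of the 36 libraries was left out, with adjusted p up to 0.0187. Young liver held 38.7, 29.0 and 33.3 CPM at 48, all below the old libraries. The log2 difference of 1.28 ± 0.32 was called (edgeR adjusted p 0.00852), but not without old replicate 2 (0.83, adjusted p 0.145). At 96 the old libraries (48.5, 28.95 and 30.4 CPM) were again all above the young ones (21.96, 23.8 and 10.8 CPM), with a log2 difference of 0.90 ± 0.33 that was not called (edgeR adjusted p 0.218).

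**Figure D2:**
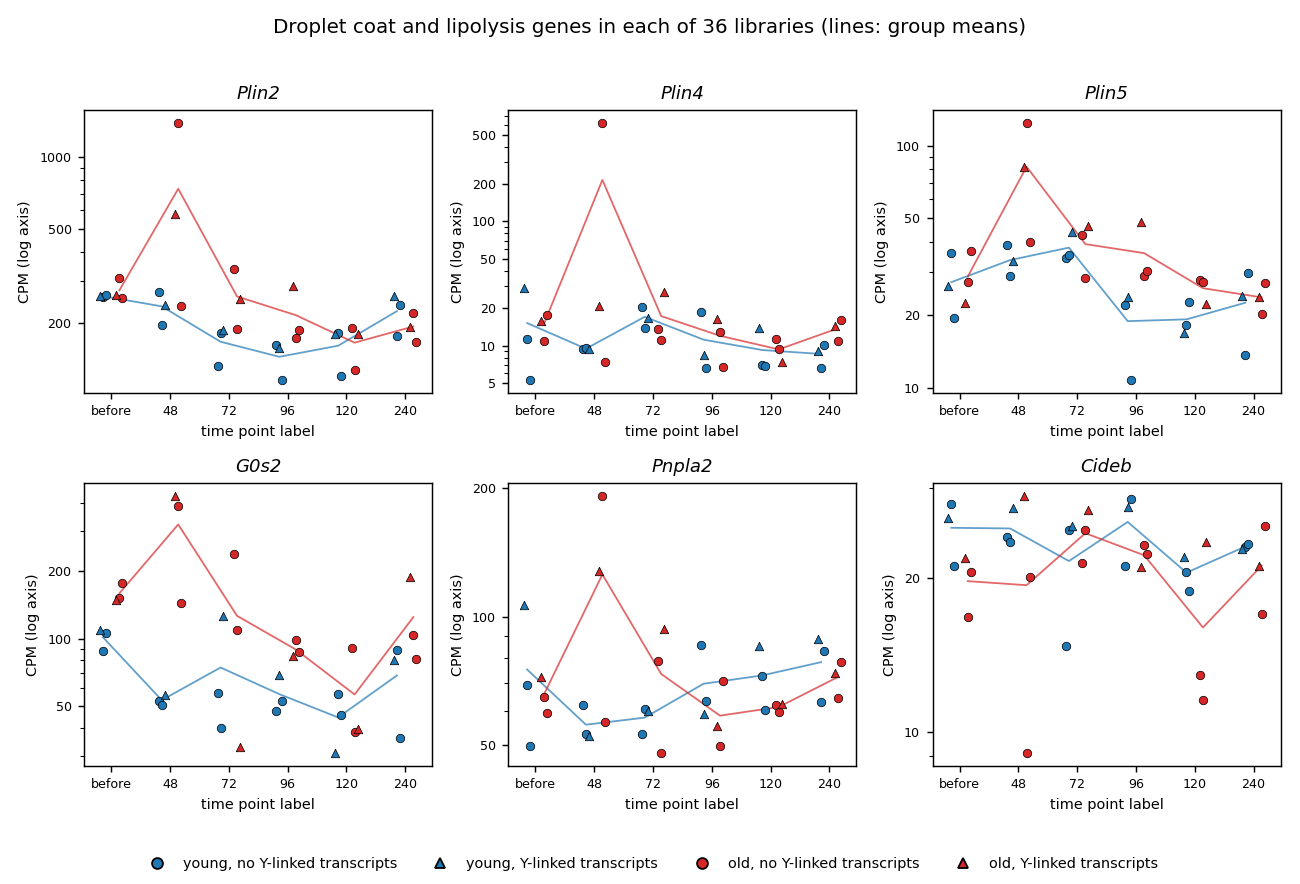
CPM (log axis) of Plin2, Plin4, Plin5, G0s2, Pnpla2 and Cideb in each of the 36 libraries by time point label; blue is young, red is old, triangles are libraries with Y-linked transcripts, circles the others, and lines join group means. At 48 old replicates 1 and 2 stand above the young libraries in every panel but that of Cideb, while old replicate 3 lies near or within the young range for Plin2, Plin4, Plin5 and Pnpla2.

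Cidec codes for the CIDE protein that makes large droplets in fat cells and in fatty liver. In old liver it held 28.4, 2.46 and 2.05 CPM before and 179, 213 and 6.75 CPM at 48. Replicates 1 and 2 at 48 were the highest libraries of the series and replicate 3 lay below the first library before. The rise was 12.2-fold (log2 3.61 ± 1.17, edgeR adjusted p 0.0264). It was not called without old replicate 2 (adjusted p 0.109) or 3 (0.112) before, nor without old replicate 1 (0.0600) or 2 (0.0816) at 48, all by edgeR. Without old replicate 1 before, the library with 28.4 CPM, the log2 fold change was 5.89 and the call was made.

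Young libraries at 48 held 2.29, 2.59 and 5.17 CPM of Cidec, so that all 3 old libraries were above them. Old was 40.3-fold higher by the fit (log2 5.33 ± 1.32, edgeR adjusted p 0.00900). Leaving out young replicate 1 at 48 took the edgeR adjusted p to 0.0579, at a log2 difference of 5.07.

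Cidea codes for the CIDE protein of brown fat, which healthy liver hardly makes. Of 36 libraries 21 held 0 counts. The 18 young libraries held 0 to 2 counts. The old libraries held 70, 0 and 0 counts before, and 216, 6 and 2 at 48. Their counts were 1, 0 and 20 at 72 and 7, 0 and 0 at 96. Time point 120 gave 1, 0 and 5 counts, and 240 gave 40, 0 and 0. In each old group 1 library carried most of the counts, which is described further below. At 48 the old libraries held 48.0, 1.22 and 0.409 CPM against 0.163, 0 and 0 in young. These levels are a description, because the libraries high in Cidea are those that carried it through the filter on low counts.

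Cideb codes for the CIDE protein that normal hepatocytes use to load lipoprotein particles with fat. It held 28.9, 9.12 and 20.0 CPM in old and 24.02, 23.5 and 27.3 CPM in young liver at 48. Old replicate 2, the library highest for Plin2, Plin4, Plin5 and Cidec, was the lowest of all 36 for Cideb. The log2 difference between ages was -0.37 ± 0.27 (edgeR adjusted p 0.414), and Cideb passed no test between ages or over time. Its exons share 1136 bases with Nop9 on the other strand, and whether counting used strand is not given in the sources used here, so its counts are uncertain.

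G0s2 codes for the inhibitor of the lipase made by Pnpla2. The old libraries at 48 held 431, 391 and 144 CPM, and the young ones 52.9, 50.4 and 55.9 CPM. All 3 old libraries were above all 3 young ones. Old was 6.06-fold higher (log2 2.60 ± 0.53, edgeR adjusted p 0.00205). The call was made whichever library was left out, with adjusted p up to 0.0159.

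Against before (148, 152 and 177 CPM) the old libraries at 48 were not called for G0s2, with a log2 change of 1.02 ± 0.50 (edgeR adjusted p 0.141). Young libraries held 109.6, 88.0 and 106 CPM before, all above the young libraries at 48, with a log2 change of -0.93 ± 0.51 that was not called (adjusted p 0.206). The means thus moved in opposite directions in the 2 ages. The difference between these changes was 1.95 ± 0.72, which edgeR did not call (adjusted p 0.159).

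Pnpla2 codes for adipose triglyceride lipase, which takes the first fatty acid off stored triglyceride. Its old libraries held 72.3, 64.8 and 59.3 CPM before and 128, 192 and 56.7 CPM at 48. Replicates 1 and 2 were high and replicate 3 was below all libraries before. The rise was 1.92-fold (log2 0.94 ± 0.29, edgeR adjusted p 0.0174). It was not called without old replicate 2 at 48 (0.52, adjusted p 0.198), nor without replicate 2 (adjusted p 0.0547) or 3 (0.0685) before. Against young at 48 (61.9, 53.0 and 52.5 CPM) the log2 difference was 1.17 ± 0.29 (edgeR adjusted p 0.00747), and 0.71 (adjusted p 0.155) without old replicate 2. The lipase and its inhibitor were thus both called higher in old liver at 48.

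The direct test of whether the change from before to 48 differed between ages called 0 of 9 genes, where 1.38% of all genes were called. Unadjusted p was under 0.05 for 6 of them, a looser threshold for which the share of all genes is not given here. Among these 6 the largest differences were 4.57 ± 1.29 for Plin4 (edgeR adjusted p 0.0683) and 4.25 ± 1.80 for Cidec (0.231). Then came 1.95 ± 0.72 for G0s2 (0.159), 1.57 ± 0.50 for Plin2 (0.0965) and 1.37 ± 0.40 for Pnpla2 (0.0756). Without old replicate 3 at 48, the lowest of the old libraries at that time for these genes, Plin2, Plin4, Plin5, G0s2 and Pnpla2 were called, with edgeR adjusted p from 0.00367 to 0.0493. Plin4 was called as well without old replicate 1 at 48 (adjusted p 0.0363). Other omissions of 1 library lowered the differences. The lowest values were 0.705 for Plin2, 0.63 for Plin4, 0.76 for Plin5, 1.68 for G0s2 and 0.92 for Pnpla2. The highest edgeR adjusted p over all omissions were 0.501, 0.818, 0.532, 0.342 and 0.294 for these genes in that order. DESeq2 called Plin2 (adjusted p 0.0453), Plin4 (0.0100) and Pnpla2 (0.0360) with all libraries. A single test over all 5 later time points called 0 of 9 (2.76% of all genes), with 3 under an unadjusted p of 0.05 and 1 call by DESeq2. A rise at 48 that differed between ages was thus not shown for any of the genes at this level of spread with all libraries in edgeR.

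Adipocyte markers were measured beside these genes, since Plin4, Cidec and Cidea are made in fat cells. Adipoq and Plin1, which define fat cells, were at 0 counts in all 3 old libraries at 48. The 6 adipocyte markers summed to 3.33, 1.22 and 2.66 CPM in them, against 1.22 to 39.1 CPM over all 36. Of the 6 markers, 2, 4 and 1 were detected in replicates 1, 2 and 3. Before regeneration old replicate 1, with 70 counts of Cidea and 28.4 CPM of Cidec, held 35.9 CPM of adipocyte markers, with all 6 detected. Adipoq and Plin1 held 1 count each in it. It was the one old library with all 4 brown fat and muscle markers detected, at a sum of 2.35 CPM. This library had 20255 genes detected, the most of the series, and detection in it can rest on 1 count. The highest adipocyte sum, 39.1 CPM, was in young replicate 1 at 96, which held 37 counts of Adipoq. It held 0 counts of Cidea and 7.54 CPM of Cidec, where young libraries ran from 1.66 to 8.53 CPM. Its Plin4 was 18.6 CPM (young range 5.33 to 28.9), and its Cd36 of 61.5 CPM was the highest in young liver. The part of fat cells in these values was not tested. The 4 brown fat and muscle markers (Ucp1, Cox8b, Acta1 and Myh4) summed to at most 2.35 CPM in old liver. In young replicate 1 at 120 they summed to 780.5 CPM, the highest of the series, with all 4 detected. The part of muscle in the values of that library was not tested. Macrophage markers summed to 390, 124 and 627 CPM in the old libraries at 48, where 124 was the lowest of the series, and the part of this in the results was not tested.

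Cd36 codes for a scavenger receptor that brings long-chain fatty acids into cells, in liver both in hepatocytes and in endothelium. Before regeneration young libraries held 24.3, 23.1 and 43.1 CPM and old ones 47.7, 93.2 and 89.0 CPM. At 48 young held 56.7, 55.6 and 23.7 and old 88.2, 172 and 74.0 CPM. In both cases every old library was above every young one. At 72 young held 40.7, 40.8 and 29.3 and old 91.3, 62.2 and 37.1 CPM, the single time point at which the ages overlapped, through old replicate 3. Values at 96 were 61.5, 43.7 and 33.7 CPM in young and 68.3, 73.2 and 88.3 CPM in old. At 120 they were 43.1, 36.9 and 39.4 CPM in young and 70.6, 63.5 and 66.1 CPM in old. Last, young liver held 48.2, 36.4 and 43.1 CPM and old liver 84.9, 85.5 and 76.7 CPM at 240. Old libraries were higher in mean at 6 of 6 time points and apart from the young ones at 5 of 6. Means of Plin5, Cidec, G0s2 and, as a description, Cidea were also higher in old liver at 6 of 6. Their groups were apart at 2, 1, 3 and 1 of the 6. The share of all genes with such an order is not given here.

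**Figure D3:**
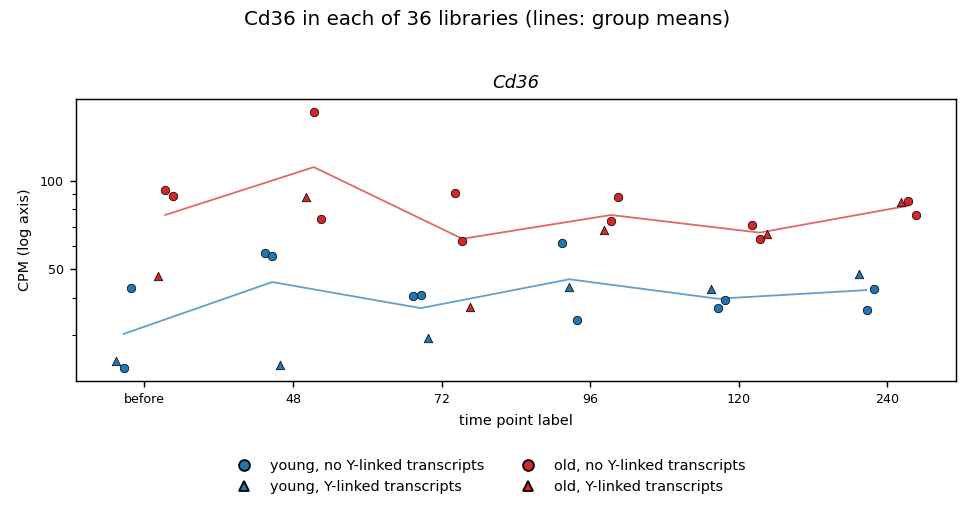
Cd36 in CPM (log axis) in each of the 36 libraries by time point label, with blue for young, red for old, triangles for libraries with Y-linked transcripts and lines through group means. The red points lie between 37.1 and 172 CPM and the blue ones between 23.1 and 61.5 CPM, and the groups overlap at 72 alone.

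Mogat1 codes for an enzyme that makes diglyceride from monoglyceride and is known to rise in fatty liver. Its counts were 0 in 9 libraries, and its level ran from 0 to 0.969 CPM in young and from 0 to 1.14 CPM in old liver. At 48 it held 0.222, 0.608 and 0 CPM in old and 0.327, 0.517 and 0.246 CPM in young libraries. At 72 the young libraries held 0, 0 and 0 counts and the old ones 3, 3 and 2. Such values rest on 5 counts or fewer, and Mogat1 was not in the main edgeR fit. No difference between ages is therefore claimed for it at this depth.

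Averaged over the 6 time points, 3.39% of all genes were called higher in old liver. Of the 9 genes 5 were, with Cidea counted among the 5 as a description only. Cd36 was among them with a 1.96-fold difference (log2 0.97 ± 0.14, edgeR adjusted p 5.392e-05), called whichever library was left out. At single time points its log2 difference ran from 0.72 ± 0.33 at 96 to 1.34 ± 0.34 before, and edgeR called it at 48 alone (1.29 ± 0.33, adjusted p 0.0103). That call was lost without young replicate 3 at 48 (0.97, adjusted p 0.0788) or old replicate 2 at 48 (0.82, adjusted p 0.173). Any change over time was not called for Cd36 in either age, with edgeR adjusted p of 0.639 in young and 0.344 in old. Endothelial markers (Pecam1, Cdh5, Kdr, Stab2, Clec4g and Lyve1) summed to a median of 337 CPM in young (226 to 412) and 302 CPM in old libraries (251 to 440.1). Hepatocyte markers had medians of 21600 CPM in young and 18820 CPM in old libraries. Macrophage markers had medians of 565 CPM in young (409 to 1157) and 614 CPM in old libraries (124 to 1067). The part of cell types in the Cd36 difference was not tested.

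The other genes called on average were G0s2 (log2 0.98 ± 0.21, edgeR adjusted p 0.00531), Cidec (2.15 ± 0.53, 0.0141), Plin5 (0.47 ± 0.13, 0.0328) and, as a description, Cidea. Plin2 (0.46 ± 0.14, 0.0513), Plin4 (0.87 ± 0.38, 0.194), Pnpla2 (0.12 ± 0.12, 0.636) and Cideb (-0.20 ± 0.11, 0.317) were not called. G0s2 was called whichever library was left out, with adjusted p up to 0.0114. The call for Cidec was lost without old replicate 1 before (edgeR adjusted p 0.0534) or old replicate 1 at 240 (0.0699). Without all 12 libraries that hold Y-linked transcripts its value was 0.82 (edgeR adjusted p 0.547). Plin5 lost its call in 12 of 36 such cases, with adjusted p up to 0.0609. When 48 was left out of the average, only Cd36 was called of the 9 (log2 0.91 ± 0.15, edgeR adjusted p 0.000594), where 2.24% of all genes were called higher. The values for G0s2 (0.66 ± 0.23, adjusted p 0.111), Cidec (1.51 ± 0.58, 0.152) and Plin5 (0.31 ± 0.15, 0.267) then did not pass in edgeR, while DESeq2 called G0s2 beside Cd36 (adjusted p 0.0407).

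Libraries with and without Y-linked transcripts were also compared, because each group held 1 of the former and 2 of the latter. With the 12 group means as terms, Cidec was higher in the 12 libraries with these transcripts (log2 1.77 ± 0.42, edgeR adjusted p 0.00792). No other gene passed apart from Cidea, while 8.4% of all genes differed and 4.56% were higher. Unadjusted p was under 0.05 for 4 of 9. Among them Cd36 was lower (-0.35 ± 0.13, edgeR adjusted p 0.106) and Cideb higher (0.28 ± 0.10, 0.106). Cidea is given by its values alone. In old liver the 6 such libraries held 1.02 to 48.0 CPM of Cidea with a median of 6.31, and the other 12 held 0 to 1.22 CPM with 8 of them at 0 counts. In young liver all 6 such libraries held 0 counts of Cidea, which allows up to 3 counts in each. For Cidec the old libraries with Y-linked transcripts held 17.8 to 179 CPM (median 28.6), and the other 12 old libraries 1.52 to 213 CPM (median 2.50). All 6 of the former were above 11 of the latter, the exception being replicate 2 at 48. Young libraries held 2.73 to 8.53 CPM of Cidec with Y-linked transcripts and 1.66 to 7.54 CPM without them.

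When each age had its own term, Cidec was higher with Y-linked transcripts in the old libraries (log2 2.57 ± 0.51, edgeR adjusted p 0.00204). Of all genes 3.9% were higher there, and 4 of the 9 had an unadjusted p under 0.05. The young libraries gave 0 of 9 (1.67% of all genes), and 0 had an unadjusted p under 0.05. The difference between the ages was not called for Cidec (1.92 ± 0.82, edgeR adjusted p 0.542), where 0.26% of all genes were called. DESeq2 was not run on this difference.

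**Figure D4:**
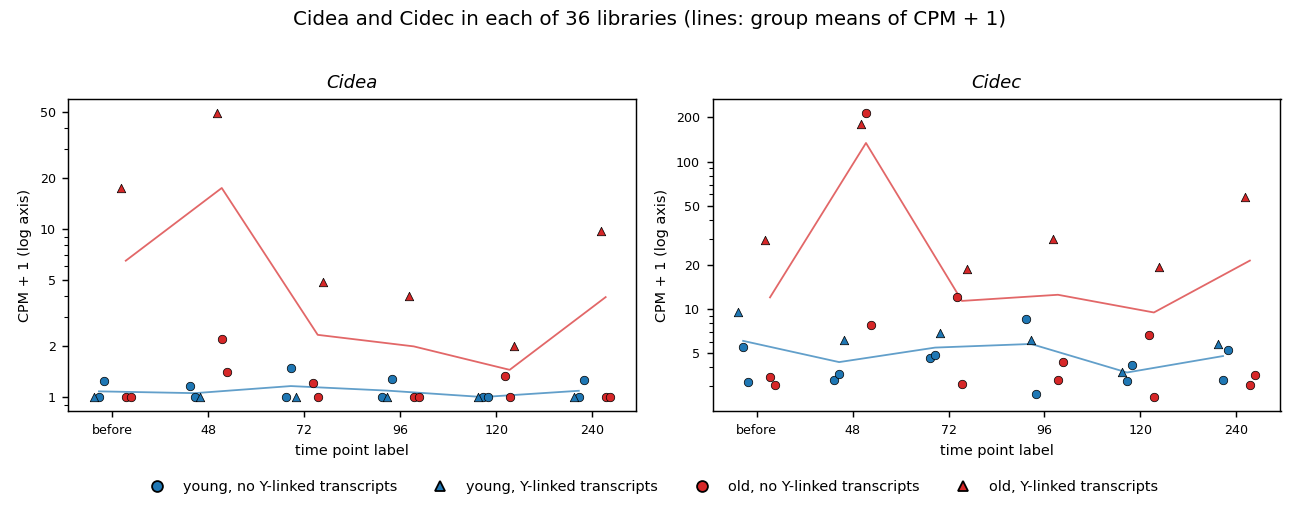
Cidea (left) and Cidec (right) as CPM + 1 on a log axis in each of the 36 libraries by time point label; blue is young, red is old, triangles mark libraries with Y-linked transcripts, and lines join group means. In each old group the triangle is the highest point for Cidea, and it is the highest for Cidec in every old group but 48, where 179 CPM stands beside 213 CPM in a circle.

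Within the split, age was compared by an exact permutation test that exchanged age labels within each time point, two-sided, on mean log2(CPM + 1), with adjustment over 20 tests. Among the 12 libraries with Y-linked transcripts Cd36 was higher in old liver by 0.86, with the sign the same in 6 of 6 comparisons (adjusted p 0.104; the raw exact permutation p of 0.03125 is the lowest that 12 libraries can give). Among the 24 others it was higher by 1.00 at 6 of 6 (exact permutation p 4.29e-05, again the smallest possible, adjusted 0.000857). G0s2 differed by 1.07 at 6 of 6 time points in the 24 (exact permutation p 0.000429, adjusted 0.00429) and by 0.55 at 5 of 6 in the 12 (p 0.438). Cidec differed by 2.65 in the 12 (exact permutation p 0.03125, adjusted 0.104) and by 0.51 in the 24 (p 0.427). The age difference for Cd36 thus had the same sign and like size on both sides of the split. That of Cidec was larger in value among the 12. The permutation test did not compare the sides. The edgeR comparison of the Y-linked contrast between ages also asks whether the sides differed for age. It was not called for Cidec (1.92 ± 0.82, adjusted p 0.542) or Cd36 (-0.15 ± 0.27, 0.961).

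Other genes of fat handling were counted over 6 lists of 58 genes, of which 53 were tested. In old liver at 48 against before, 10 rose and 8 fell, where 12.1% of all genes rose and 12% fell. The PPAR list had 4 of 11 up, among them Fgf21 (log2 5.17 ± 1.12, edgeR adjusted p 0.00187), which codes for a fasting hormone of the liver. Fgf21 held 163, 21.9 and 40.3 CPM in the 3 old libraries at 48, so that its highest library was replicate 1 and not replicate 2. Fabp4, a fatty acid carrier of fat cells and macrophages, rose by 4.44 ± 0.74 (edgeR adjusted p 0.000133) and held 11.1, 38.5 and 1.84 CPM. The lipolysis list had 4 of 8 down and 0 up, led by Pnpla3 (-4.48 ± 0.87, edgeR adjusted p 0.000693), a droplet lipase that falls in fasting, and Ces1d (-3.95 ± 0.65, 0.000164), a carboxylesterase. Of the 10 other coat and assembly genes tested, 1 passed, Hilpda (4.05 ± 0.69, edgeR adjusted p 0.000168), which codes for another inhibitor of the lipase made by Pnpla2. These list counts were not recomputed without single libraries.

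In young liver at 48 against before, 0 of the 53 rose and 8 fell, where 9.79% of all genes fell. The largest falls were in Pnpla3 (-4.74 ± 1.11, edgeR adjusted p 0.0027) and Lpin1 (-3.66 ± 0.71, 0.00045), a phosphatase that makes the diglyceride from which triglyceride is built. The triglyceride synthesis list had 4 of 9 down. At 72, 1 rose and 10 fell, where 9.21% of all genes rose and 8.21% fell. The riser was Lpl, the lipoprotein lipase, at 1.89 ± 0.59 (edgeR adjusted p 0.0288), and Lpin1 (-3.42 ± 0.70) and Lpin2 (-1.38 ± 0.38) fell most. Pnpla3 fell in old liver as well at 72 (-4.78 ± 0.89) and 120 (-5.01 ± 0.94), with edgeR adjusted p of 0.00108 and 0.00369. Over the 53 genes, old liver gave 2 up and 7 down at 72 (6.54% and 5.81% of all genes). The counts were 0 up and 2 down at 96, Pnpla3 and Gpam (3.07% of all genes down), and 0 up and 4 down at 120 (2.02% down).

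Between ages at 48, 7 of the 53 were higher and 4 lower in old liver, where 4.42% of all genes were higher and 6.78% lower. Fgf21 was higher by 4.88 ± 1.08 (edgeR adjusted p 0.00409), and Pdk4, a kinase that turns mitochondria from glucose to fat, by 3.77 ± 0.97 (0.0116). Pdk4 held 128, 1933 and 31.3 CPM in the 3 old libraries, a pattern like that of Plin4. Ces1d was lower by -2.47 ± 0.62 (edgeR adjusted p 0.00964) and Ces1g by -1.84 ± 0.56 (0.0305). Averaged over time points, 1 of the 53 was higher and 3 were lower, with 2.59% of all genes lower. Pdk4 was higher (1.5 ± 0.39, edgeR adjusted p 0.0205), and Fabp1 (-0.52 ± 0.13, 0.0155), Slc27a5 (-0.47 ± 0.12, 0.0156) and Aadac (-0.45 ± 0.11, 0.0120) were lower. The interaction of age and time was called for 2 of the 53, Lpin1 (edgeR adjusted p 0.0398) and Fabp4 (0.0493), a share close to the 2.76% of all genes. All these comparisons against before share the same 3 libraries per age.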

How the data were processed

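Each of the 36 libraries, made from ribosome-depleted total RNA, had 1 deposited table of raw counts by gene symbol. Per the submitters' processing notes, Trimmomatic 0.39, STAR 2.7.5b and featureCounts were used with build GRCm38. Whether strand was used in counting is not given in the sources used here. The tables held 0 spike-in rows, so a change in total RNA per cell cannot be seen.

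Counts were tested in edgeR 4.0.16 (R 4.3.3): filterByExpr on 12 groups, TMM scaling (factors 0.930 to 1.13), robust dispersions, 1 quasi-likelihood fit of all 36 libraries (common coefficient of variation 24.7%) and Benjamini-Hochberg adjustment over 13436 genes in each comparison. The test was tried on simulated data. Shares of all genes are for adjusted p in edgeR fits of all 36 libraries. None is given for counts at unadjusted p, by DESeq2, in restricted fits or after omissions. Members and gene lists were chosen with earlier results of these data known. From the lists, the 2 called genes with the largest rise and the 2 with the largest fall were named per comparison; Hilpda and the genes called for the interaction or on average beyond these were named after their values were seen. Replicate numbers did not pair the libraries: the mean correlation of deviations between same-numbered libraries ran from -0.01 to 0.15. Alternatives were other scalings, no filter, a replicate block, fits restricted to the groups compared, DESeq2 1.42.0, the Y-linked split and leaving out each library. Zero counts were read as allowing up to 3 counts; such limits cover counting error only. The libraries are called biological replicates, but the animals are not named.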

Additional observations from a re-analysis of the deposited data

Results flagged for a closer look

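Cidea was picked out by a contrast between libraries with and without Y-linked transcripts that differed between the ages (adjusted p 0.0159 by edgeR's quasi-likelihood test). That value is no evidence of a difference, because Cidea passed the filter on low counts only through the old libraries with these transcripts and the young ones are at 0. The counts themselves were 5 to 216 in all 6 old libraries with these transcripts, 0 in all 6 young ones, 0 to 6 in the other old and 0 to 2 in the other young libraries. The labels name no sex, and the part of sex in these values was not tested.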

How the results depend on the processing

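Counts of calls moved with several choices, and the cause was not tested. Fits of only the groups compared gave 5 calls in place of 0 for young liver against before, 1 in place of 5 for old liver, 2 in place of 0 and 3 in place of 6 for any change over time in young and old, and 0 in place of 8 between ages at single time points. Without the 12 libraries with Y-linked transcripts the counts were 3 for old against before, 3 for any change in old, 3 between ages at single time points and 2 on average. A replicate block nested in age left 5 calls between ages at single time points, 3 on average and 1 for the Y-linked split, turned Pnpla2 on average to -0.064 and took the calls of Cd36 on average (0.77, edgeR adjusted p 0.0777) and Cidec in the split (1.62, 0.0597), but changed no other count of calls by more than 1.5 times. Without a filter 3 were called on average, and 1 when 48 was left out, an alternative chosen after seeing the data. DESeq2 gave 1 call for the interaction over all later time points and 1 for any change in young liver, as did total-count scaling for the latter. Leaving out each library in turn gave 0 to 0 calls for young against before, 1 to 6 for old against before, 0 to 2 and 2 to 7 for any change in young and old, 3 to 8 between ages, 3 to 6 on average, 0 to 3 for that joint interaction and 2 to 2 for the split. Plin4 in old liver at 48 against before ran from -0.041, without old replicate 2 at 48, to 4.44. Depth limited Cidea and Mogat1, whose counts were mostly at or near 0.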

Other observations

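The genes whose group means followed those of a storage gene most closely were found among 10675 genes by Pearson correlation of mean log2(CPM + 1) over the 12 groups. These are descriptions, since all group means share the same libraries and the old group at 48 weighs on each value. For Cd36 the closest was Rcan2 (0.97 over 12 group means, 0.66 over the 36 libraries), followed by Vat1 (0.92) and Mbnl2 (0.90). Plin5 was followed most closely by Rbpms (0.96), Als2cl (0.96) and Cgref1 (0.96). For Plin2 the closest were Tgoln1 (0.95), Tanc2 (0.94) and Rusc2 (0.94). For G0s2 they were Pex11a (0.93), which codes for a factor of peroxisome division, Nfe2l1 (0.92) and St3gal5 (0.91). For Cidec they were Sgms1 (0.96), Tead1 (0.95) and Dusp3 (0.94).

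Among the other genes of fat handling, 3 of 53 differed between libraries with and without Y-linked transcripts, where 8.4% of all genes did. Vldlr, the receptor that takes up very low density lipoprotein, was lower in the libraries with these transcripts by -2.18 ± 0.28 on the log2 scale (edgeR adjusted p 5.58e-06). Fitm1, a protein of droplet formation best known from muscle, was higher by 1.73 ± 0.23 (edgeR adjusted p 7.29e-06), and Bscl2, the gene of seipin, by 0.34 ± 0.10 (0.0283). The Vldlr difference was called in each age on its own, at -1.30 ± 0.29 in young (edgeR adjusted p 0.0127) and -3.19 ± 0.32 in old liver (6.82e-08).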
